A study of Mus musculus with 17 samples.

Results

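The genotype comparison in mouse liver exposed to an agonist of the liver X receptors was described over all genes measured. Its members were the 9 libraries titled as GW3965 libraries among the 17 of the study: 4 of control livers and 5 labelled Gata4LKO. Both groups came from male mice of mixed strain, labelled 11 weeks old, that carried floxed Gata4 alleles, had been injected with an AAV8 virus 1 week earlier at 10 weeks of age, and had been fasted for 4 h. Both received GW3965 by gavage, dissolved in canola oil at a dose of 40 mg/kg, the first 17 h and the second 8 h before they were killed. The virus carried Cre recombinase driven by Tbg, a hepatocyte promoter, in the Gata4LKO arm and was empty in the control arm, so an effect of Cre and an effect of the deletion cannot be told apart. The treatment characteristic names vehicle in the control group although its titles name GW3965, and the series text gives a younger age, so groups follow the titles. Separate mice are not stated in the labels, so p-values measure the spread between these libraries, which may in part be technical.

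GATA4 is a zinc-finger transcription factor that binds DNA at sites built around the letters GATA and takes part in heart, gut and liver development. In the adult liver it is known from sinusoidal endothelium and stellate cells as well as from hepatocytes, while the Tbg promoter directs Cre to hepatocytes. The liver X receptors are nuclear receptors for oxidised sterols. When bound by an agonist such as GW3965 they switch on genes of sterol efflux and, through the transcription factor SREBP-1c, genes of fatty acid synthesis. Both arms of the comparison were treated, so it shows how the genotypes differed in the presence of the agonist, not the response to it.

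Recovered reads in genes ranged from 11.8 M to 20.1 M per library, and 15601 to 19305 genes had a value above 0, the lowest number in replicate 16 of the libraries labelled Gata4LKO. Transcripts encoded by the mitochondrial genome took 6.06% to 7.11% of the normalized counts in 5 libraries and 15.6% to 32.6% in the other 4, which were control replicates 10 and 13 and Gata4LKO replicates 17 and 18. The share did not differ between the groups beyond its spread (two-sided exact permutation test of 5 against 4 libraries, p = 0.730, with 0.0159 the smallest this design allows). The pseudogene Gm5345 was near 0 in control replicates 9 and 10 (0.833 and 1.00 normalized counts) and at 23.1 to 101 in the other 7 libraries. Hepatocyte markers dominated every library, with Alb, which encodes albumin, at 895197 to 1722490 normalized counts. The adipocyte marker Adipoq was at 0 in all 9, the 1 of 7 measured adipose, pancreas and gut markers that was. Summed, these 7 were at 477 to 737 in control libraries and 540 to 749 in libraries labelled Gata4LKO. Summed hepatocyte markers ranged from 1508410 to 2171450 in control libraries and from 1272900 to 1630270 in libraries labelled Gata4LKO.

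The targeted gene was examined first. Gata4 (chromosome 14, 63198922 to 63271692, minus strand, mm10) was at 164, 254, 258 and 209 normalized counts in control libraries and at 260, 194, 244, 160 and 239 in those labelled Gata4LKO. The groups overlapped fully. The fold of labelled Gata4LKO over control was 0.992, with a 95% interval of 0.746 to 1.32 from the limma fit, so these counts did not bear out the label. With vehicle Gata4 was not lower either, at 153 ± 27.3 (SD) in control and 194 ± 44.2 in libraries labelled Gata4LKO (log2 0.32 ± 0.21, limma adjusted p = 0.910). The labels do not name the floxed exons, and a count over the whole gene also takes reads from exons that remain and from cells that Tbg does not target. For this reason the groups are called by their labels throughout. The closest relative among liver GATA factors, Gata6, was at 147 ± 34.3 (SD, n = 4) in control and 223 ± 58.2 (SD, n = 5) in libraries labelled Gata4LKO, which in log2 is 0.59 ± 0.23 (SE; limma adjusted p = 0.642). With vehicle Gata6 had the opposite sign, at 169 ± 58.8 and 110 ± 22.6 (log2 -0.58 ± 0.24, limma adjusted p = 0.753). Zfpm1, which encodes the GATA cofactor FOG1, was at 617 ± 219 and 362 ± 77.1 normalized counts, which differed by -0.73 ± 0.23 in log2 (limma adjusted p = 0.412). Over the list of GATA and liver transcription factors, 9 of 19 log2 differences were positive, and the median was -0.01.

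Only a few genes separated the genotypes once all 13379 tested genes were taken into account. Limma called 8 at an adjusted p below 0.05, which is 0.0598% of the genes tested: 2 were higher (0.0149%) and 6 lower (0.0448%) in libraries labelled Gata4LKO. An unadjusted p below 0.05 was reached by 865 genes, or 6.47%, and 262 genes, or 1.96%, had no overlap between the values of the groups (0.822% higher and 1.14% lower). The median log2 difference over all genes was -0.01. The 6 lower genes act in uptake, transport and metabolism: an anion transporter, a fatty acid carrier, a succinate receptor, a membrane sensor, an esterase and a steroid dehydrogenase. The 2 higher genes encode secreted proteins.

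**Figure D1:**
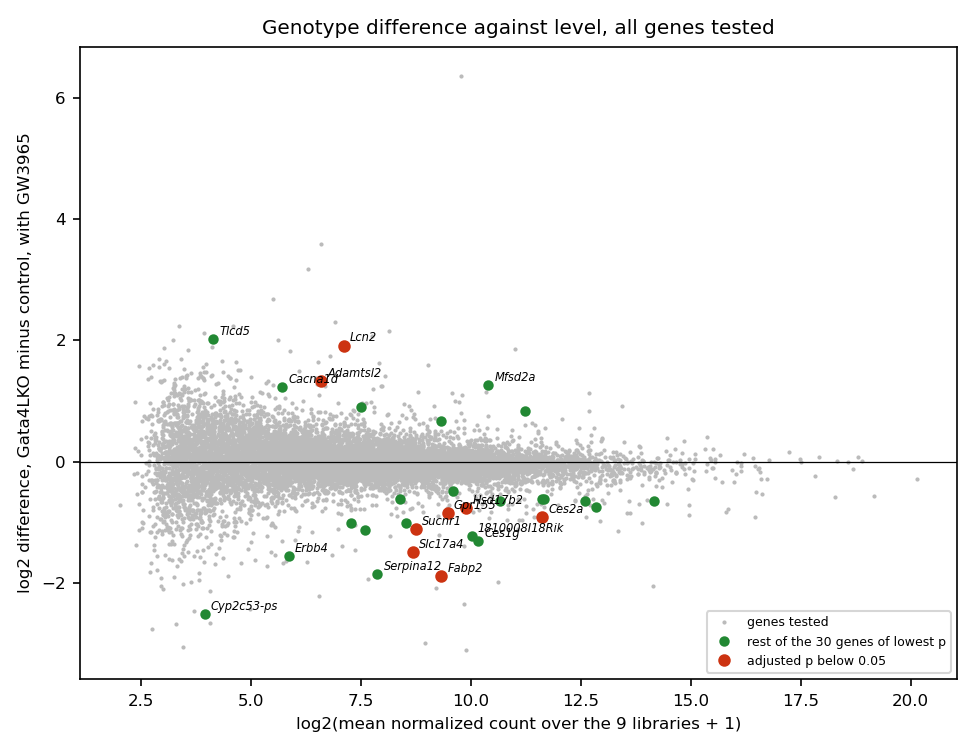
Log2 difference between libraries labelled Gata4LKO and control libraries, both given GW3965 (vertical axis), against the log2 of the mean normalized count plus 1 over the 9 libraries (horizontal axis), for the 13379 genes tested. Red points are the 8 genes called by limma and green points the rest of the 30 genes of lowest p, of which those beyond 1.2 in either direction are named. Most of the 30 lie below 0.

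The gene with the lowest p was Slc17a4 (chromosome 13, 23895890 to 23915009, minus strand), which encodes a transporter of organic anions such as urate. Control libraries had 799, 517, 570 and 679 normalized counts and libraries labelled Gata4LKO had 220, 222, 196, 243 and 242. The lowest control library thus stood far above the highest of the other group, and the 5 lower values lay close together. Control values were 2.82-fold those labelled Gata4LKO, with a log2 difference of -1.49 ± 0.16 (limma adjusted p = 0.0004699). Of other members of the family, some named after their values were seen, Slc17a2 was at a log2 difference of -0.33 ± 0.18 and Slc17a1 at 0.36 ± 0.22. The more distant Slc17a9 was at 0.45 ± 0.23. Among the 22 tested solute carriers of organic anions and cations, which hold further family members, Slc17a4 was the 1 gene called.

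Fabp2 (chromosome 3, 122895072 to 122899506, plus strand) encodes the intestinal-type fatty acid-binding protein, a carrier of long-chain fatty acids in the cytosol. It was at 678, 1912, 1065 and 753 normalized counts in control libraries and at 294, 309, 272, 254 and 239 in libraries labelled Gata4LKO. The groups did not overlap, and the spread lay almost wholly among the controls, where replicate 10 was the highest. The log2 difference was -1.89 ± 0.29 (limma adjusted p = 0.0205), a 3.70-fold higher level in control. An annotated antisense transcript, 4933405D12Rik, overlaps the gene. No label states whether the counting used strand, so reads of the pair cannot be told apart.

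Sucnr1 (chromosome 3, 60081869 to 60087566, plus strand), the cell surface receptor for succinate, was at 660, 533, 695 and 542 in control libraries and 265, 267, 423, 308 and 179 in those labelled Gata4LKO. Even the highest of the latter, replicate 16, was below every control. The log2 difference was -1.12 ± 0.20 (limma adjusted p = 0.0448). Gpr155 (chromosome 2, 73341506 to 73386572, minus strand), a lysosomal membrane protein that binds cholesterol, had 953, 754, 951 and 1128 normalized counts in control and 607, 486, 420, 516 and 588 in libraries labelled Gata4LKO. The separation was again complete, at -0.85 ± 0.15 in log2 (limma adjusted p = 0.037). The annotated antisense transcripts Gm13703 and Gm13709 overlap it.

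Among the enzymes, Ces2a (chromosome 8, 104734003 to 104741634, plus strand) encodes a carboxylesterase of the endoplasmic reticulum that hydrolyses glycerolipids and drug esters. It was at 4266, 4199, 4985 and 3665 normalized counts in control and at 2151, 2004, 2932, 2316 and 1969 in libraries labelled Gata4LKO. No library labelled Gata4LKO reached the lowest control, and control values were 1.89-fold higher, with a log2 difference of -0.92 ± 0.12 (limma adjusted p = 0.00246). Hsd17b2 (chromosome 8, 117701904 to 117759027, plus strand), which oxidises oestradiol and testosterone to their less active keto forms, was at 1217, 1304, 1162 and 1253 in control and 674, 640, 765, 854 and 690 in libraries labelled Gata4LKO. Its control values were tightly grouped and did not overlap the others. The log2 difference was -0.77 ± 0.13 (limma adjusted p = 0.0301). The annotated transcripts Gm45776, on the same strand, and Gm31774, antisense, overlap Hsd17b2.

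Both higher genes started from low counts in control. Lcn2 (chromosome 2, 32384633 to 32388252, minus strand), the lipocalin that binds bacterial siderophores and is induced in hepatocytes during the acute phase, was at 98.3, 38.0, 42.0 and 46.5 in control and at 161, 169.9, 197, 243 and 238 in libraries labelled Gata4LKO. Control replicate 9 was above the other 3 controls but below every library of the other group. The level was 3.77-fold higher (95% interval 2.39 to 5.94), or 1.91 ± 0.31 in log2 (limma adjusted p = 0.0301). Adamtsl2 (chromosome 2, 27079379 to 27108981, plus strand), a glycoprotein of the extracellular matrix that binds the TGF-beta binding protein LTBP1, was at 40.0, 46.0, 81.3 and 41.2 in control and 141, 139.7, 176, 88.6 and 107 in libraries labelled Gata4LKO. The margin between the groups was narrow, with control replicate 12 just below Gata4LKO replicate 17. In log2 the groups differed by 1.33 ± 0.23 (limma adjusted p = 0.037).

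**Figure D2:**
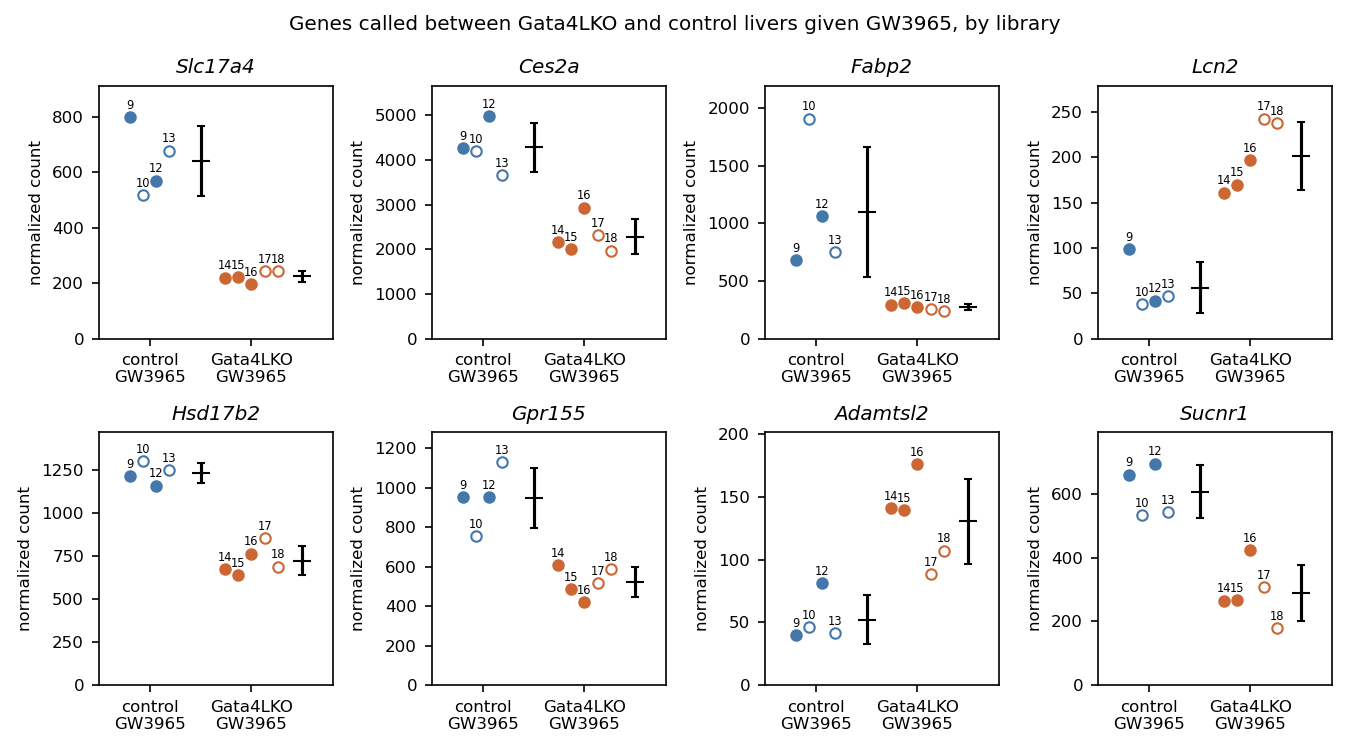
Normalized counts (vertical axis) of the 8 called genes in each library, numbered by replicate, for control (blue) and labelled Gata4LKO (orange) livers given GW3965. Open circles are libraries with more than 10% of counts from mitochondrially encoded genes, and bars are the mean and SD of each group; for all 8 genes the groups do not overlap.

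How far a call depended on single libraries differed between the 8 genes. Slc17a4 and Ces2a kept their calls in all 9 fits that left out 1 library each, with limma adjusted p up to 0.003735 (without control replicate 9) and 0.0142 (without control replicate 12). Fabp2 kept its call in 6 of the 9 fits, Lcn2 in 3, and Hsd17b2, Gpr155, Adamtsl2 and Sucnr1 in 2 each. In a fit of the 9 GW3965 libraries alone, without the spread estimated from vehicle libraries, Slc17a4 kept its call (limma adjusted p = 0.008251) and the other 7 genes did not. In that fit adjusted p was 0.0789 for Fabp2 and Lcn2, 0.126 for Ces2a and Hsd17b2, 0.207 for Gpr155 and 0.286 for Adamtsl2 and Sucnr1. Without control replicates 9 and 10, the pair with almost no Gm5345, 1 of the 8 genes, Slc17a4, kept its call (log2 -1.47, limma adjusted p = 0.008315). There Ces2a was at -0.93 (adjusted p = 0.0702), Fabp2 at -1.71 (0.0756), Lcn2 at 2.15 (0.0622) and Gpr155 at -1.0 (0.0756). Adamtsl2 was at 1.12 and its adjusted p was 0.543. The presence of Gm5345 varied within the control GW3965 group only, so using it as a covariate gave the same log2 differences and is no separate check. In that fit Slc17a4 was the 1 gene of the 8 that kept its call (limma adjusted p = 0.01443).

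Within the 5 libraries of low mitochondrial share, the log2 difference was -1.66 ± 0.22 for Slc17a4, -0.99 ± 0.14 for Ces2a, -1.54 ± 0.33 for Fabp2 and 1.43 ± 0.42 for Lcn2. Within the 4 of high share it was -1.29 ± 0.25, -0.88 ± 0.22, -2.28 ± 0.39 and 2.49 ± 0.32 in the same order. All 8 genes kept their direction in both sets, but this was fixed beforehand, because their groups did not overlap over the 9 libraries. The fit of low share also took its spread from the vehicle libraries of low share. That of high share used its 4 GW3965 libraries alone, so SE and calls of the 2 fits are not comparable. In the fit of low share 9 genes were called, all of them lower. They were Slc17a4, Ces2a, the lincRNA 1810008I18Rik, the adiponectin receptor Adipor2 and the esterases Ces2g and Aadac. The urea cycle enzyme Otc, the membrane protein gene Fam234b and the chemokine Ccl9 completed the set. Fam234b (-0.52 ± 0.08) and Ccl9 (-0.76 ± 0.10) are named only because they were called there, after their values were seen.

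Since GATA4 is known for binding GATA letters, the 250 bases before the annotated start were searched for AGATAA and TGATAA on both strands, in RefSeq promoter windows of build GRCm38.p6. Of the 30 genes of lowest p, 21 had a window in that table, 6 of the 8 called genes among them. The letters were present in 1 of the 6 called genes, Ces2a, and in 6 of the 21, against 11.9% of 10107 tested genes and 16.6% of all 32851 windows. The 6 were Ces2a, Adh1, Akr1c19, Cacna1d, Ces1g and Mbl2. The windows of Adh1, Akr1c19 and Cacna1d lie inside the genes as GENCODE, used here for positions, places them. That of Ces1g lies partly inside, so the RefSeq start need not be the first base of the gene. A match is a description of the letters only, since binding was not measured. Windows of 3 genes with negative differences are shown, on the plus strand, because they illustrate a single match in a called gene, a group of 3 matches and a match close to the start. Capitals mark AGATAA or TGATAA, or their complement TTATCT or TTATCA where the letters lie on the other strand. The match of Ces2a (chr8:104733753-104734002) begins 93 bases before the start, those of Akr1c19 (chr13:4233490-4233739) begin 249, 235 and 98 bases before it, and that of Mbl2 (chr19:30232678-30232927) begins 34 bases before it.
Ces2a: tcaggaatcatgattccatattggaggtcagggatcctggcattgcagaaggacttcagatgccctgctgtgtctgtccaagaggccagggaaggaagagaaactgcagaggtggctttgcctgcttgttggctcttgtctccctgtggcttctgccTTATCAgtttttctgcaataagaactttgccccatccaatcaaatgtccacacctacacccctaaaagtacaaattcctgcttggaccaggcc
Akr1c19: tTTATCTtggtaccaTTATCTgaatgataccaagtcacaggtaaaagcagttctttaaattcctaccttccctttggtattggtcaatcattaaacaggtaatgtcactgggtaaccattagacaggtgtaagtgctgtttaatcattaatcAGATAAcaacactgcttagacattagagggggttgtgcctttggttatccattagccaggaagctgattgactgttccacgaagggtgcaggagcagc
Mbl2: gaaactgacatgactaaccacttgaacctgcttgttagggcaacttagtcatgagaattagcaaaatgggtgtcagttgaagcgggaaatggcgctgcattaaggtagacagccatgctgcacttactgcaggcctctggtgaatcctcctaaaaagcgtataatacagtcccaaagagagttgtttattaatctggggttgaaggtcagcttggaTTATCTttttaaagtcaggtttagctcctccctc

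The 22 genes that followed the called ones by p, with limma adjusted p from 0.0691 to 0.137, did not pass the threshold. Of the 30 genes of lowest p in all, 22 were at lower and 8 at higher values in libraries labelled Gata4LKO. In 26 of them the groups did not overlap, against 1.96% of all genes tested. Picking genes by low p favours such separation, so for these genes it is no added evidence. Several act on bile acids, sterols, alcohols and fatty acids. Baat, which joins bile acids to taurine, was at 3875, 3160, 4253 and 4401 in control and 2782, 2424, 2746, 2625 and 2109 in libraries labelled Gata4LKO, without overlap (log2 -0.62 ± 0.12). Soat2, which esterifies cholesterol for export, was at 562, 591, 532 and 380 against 248, 205, 330, 258 and 227, also without overlap (-1.02 ± 0.20). The alcohol dehydrogenase Adh1 was at 23238 ± 2774 (SD, n = 4) and 14704 ± 1055 (SD, n = 5), a log2 difference of -0.66 ± 0.13. Akr1c19, an aldo-keto reductase, was at 2044 ± 377 and 1294 ± 146 (-0.65 ± 0.13). Its RefSeq window held 3 of the GATA matches shown.

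Of the genes with other roles, Erbb4, a receptor for neuregulins, was at 53.3, 105, 117 and 85.0 in control and 33.8, 46.6, 14.9, 40.5 and 20.1 in libraries labelled Gata4LKO (-1.56 ± 0.31). Adipor2, the adiponectin receptor abundant in liver, was at 9518 ± 1736 and 5742 ± 1237 (-0.74 ± 0.15), and Mbl2, the mannose-binding lectin that starts complement activation, at 4052 ± 660 and 2637 ± 369 (-0.62 ± 0.14). Il1r1, the receptor for interleukin 1, was at 1241, 1906, 1500 and 2117 in control and 2538, 3602, 3291, 2646 and 2810 in libraries labelled Gata4LKO, without overlap (0.83 ± 0.17). Mfsd2a, a transporter of lysophosphatidylcholine that carries docosahexaenoic acid, was at 738, 657, 747 and 770 against 1117, 1534, 2853, 1555 and 2125 (1.26 ± 0.27). The controls of Mfsd2a lay within a narrow band, below all 5 libraries of the other group. Pdgfra, the platelet-derived growth factor receptor of mesenchymal cells, was at 123 ± 24.1 and 229 ± 46.7 (0.89 ± 0.20).

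Among the other genes of this set, Tlcd5 was at 5.63 ± 2.92 and 25.7 ± 8.70 (2.02 ± 0.39), and the calcium channel subunit Cacna1d at 29.3 ± 10.6 and 68.7 ± 17.0 (1.23 ± 0.25). The pseudogene Cyp2c53-ps, which overlaps Cyp2c29 on the same strand and could share its reads, was at 27.9 ± 12.7 and 3.69 ± 1.47 (-2.52 ± 0.55). Serpina12, which encodes the adipokine vaspin, was at 378 ± 142 and 119 ± 77.2 (-1.86 ± 0.41). The lincRNA 1810008I18Rik was at 1465 ± 147 in control, while libraries labelled Gata4LKO had 506, 432, 663, 1426 and 452. In replicate 17, which had the highest mitochondrial share, it was at a control-like level. Abcc9, Sh3bgrl2, Xkr9, Gm4956, D130043K22Rik, Ces1g and Sc5d completed the set, with log2 differences from -1.32 (Ces1g) to 0.67 (Abcc9).

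In the authors' deposited table for this comparison, 77 of 15086 genes had an adjusted p below 0.05, or 0.51%, with 20 higher (0.133%) and 57 lower (0.378%). All 30 genes of lowest p above were among them in the authors' deposited table. DESeq2 on the reads recovered here called 81 genes (22 higher and 59 lower), all 8 of the limma calls included. The quasi-likelihood test of edgeR on the same reads called 5, all lower and all among the 8: Slc17a4, Ces2a, Fabp2, Hsd17b2 and Gpr155. The gene with the largest log2 difference in the authors' deposited table, Serpina3c, a serpin of the antichymotrypsin cluster, stood at 7.94 there. Its normalized counts were 5.00, 14, 2.62 and 3.99 in control and 3.14, 3609, 1029, 1438 and 1806 in libraries labelled Gata4LKO. Replicate 14 thus had a control-like value among 4 high ones, and limma gave a log2 difference of 6.37 ± 2.29 with an adjusted p of 0.583. Serpin clusters hold near-identical copies, so the split of reads between them is uncertain.

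The same genotype contrast in vehicle-treated livers gave a separate view of these genes, from 8 libraries that do not enter the GW3965 contrast except through the shared estimate of spread. Of the 8 called genes, 5 had the same sign with vehicle, and of the 30 genes of lowest p 23 did, where 51.8% of all genes tested kept their sign. The 5 were Slc17a4 (-1.25), Fabp2 (-1.65), Gpr155 (-0.79), Sucnr1 (-0.69) and Hsd17b2 (-0.37). Of the 8 higher genes among the 30, Lcn2, Adamtsl2, Il1r1, Mfsd2a and Pdgfra changed sign. Of the 22 lower ones, Ces2a and Sh3bgrl2 did. Ces2a was at 2565 ± 141 normalized counts in control and 2644 ± 178 in libraries labelled Gata4LKO with vehicle (SD, n = 4 each), a log2 difference of 0.04 ± 0.12. Its level in livers given GW3965 and labelled Gata4LKO, at 2274 ± 392, was close to both vehicle groups, and the control GW3965 group stood apart at 4279 ± 542. Lcn2 was at 234 ± 127 and 173 ± 48.0 with vehicle and Adamtsl2 at 102 ± 17.3 and 85.8 ± 14.3, so for both the lowest of the 4 groups was control with GW3965.

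Whether the genotype difference itself differed between the treatments was tested as the interaction of genotype and treatment. Limma called 2 genes, Gm5345 and Sult1e1, which is 0.0149% of those tested, and 622 genes (4.65%) had an unadjusted p below 0.05. By limma none of the 8 genes called with GW3965 passed for the interaction. Ces2a was at -0.96 ± 0.17 (limma adjusted p = 0.0817), Il1r1 at 1.29 ± 0.25 (0.105) and Lcn2 at 2.26 ± 0.45 (0.149). Mfsd2a was at 1.94 ± 0.39 (limma adjusted p = 0.149), Sh3bgrl2 at -0.70 ± 0.15 (0.192) and Adamtsl2 at 1.57 ± 0.34 (0.192). Sult1e1, the oestrogen sulfotransferase, was at 10.8, 30, 8.74 and 13.3 in control and 18.1, 49.0, 26.8, 17.3 and 62.5 in libraries labelled Gata4LKO with GW3965. These overlapped (log2 1.07 ± 0.42, limma adjusted p = 0.644), while with vehicle the difference was -2.88 ± 0.44. The interaction was 3.95 ± 0.60 (limma adjusted p = 0.0374). Gm5345, whose values split the control libraries as given above, averaged 49.8 normalized counts in control and 0.796 in libraries labelled Gata4LKO with vehicle. By edgeR 0 genes were called for the interaction and 621 had an unadjusted p below 0.05, by DESeq2 26 were called, and the authors' deposited table called 26 of 13655. Ces2a, Lcn2, Adamtsl2, Il1r1, Mfsd2a and Sh3bgrl2 were among those 26, with adjusted p of 0.000482, 0.00278, 0.00934, 0.00206, 0.000472 and 0.00559 in the authors' deposited table.

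**Figure D3:**
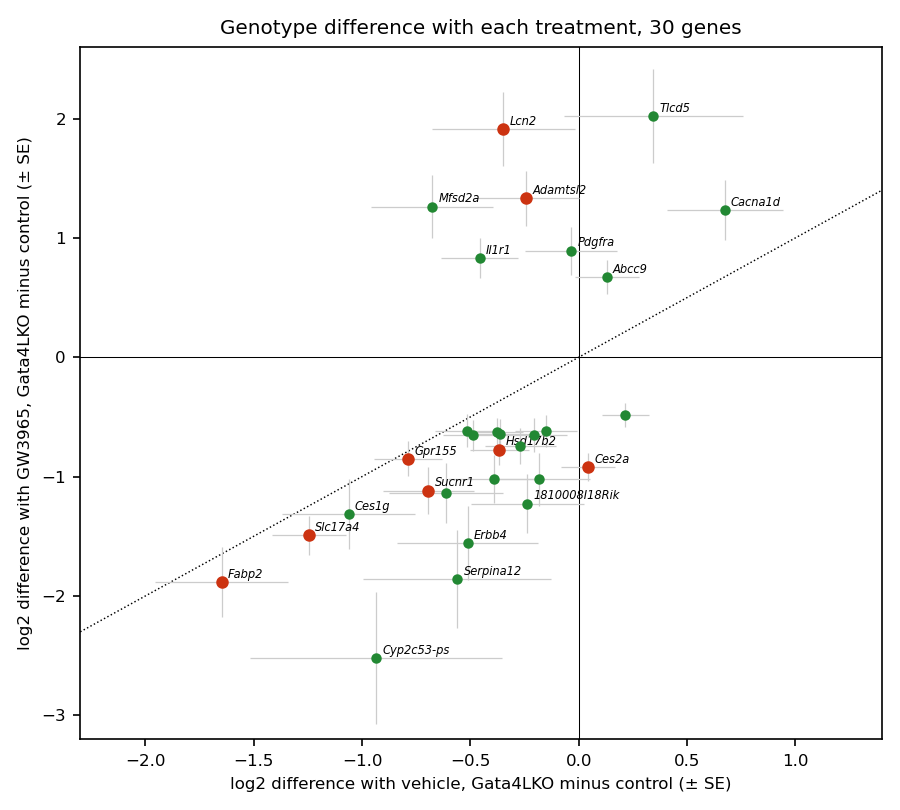
Genotype difference with GW3965 (vertical axis) against that with vehicle (horizontal axis), both in log2 with bars of ± SE, for the 30 genes of lowest p with GW3965; red points are the 8 called genes and the dotted line marks equal differences. The lower genes lie mostly left of 0 with vehicle too, whereas Ces2a, Sh3bgrl2, Lcn2, Adamtsl2, Il1r1, Mfsd2a and Pdgfra have the opposite sign there.

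Genes were next viewed in lists by function, described by counts and medians beside all genes tested, for which 52.9% of log2 differences were below 0, 47.1% were above 0 and the median was -0.01. An unadjusted p below 0.05 with a lower value was found in 3.39% of all genes and with a higher value in 3.08%. Apart from the called genes named above, no list member passed over all genes, so the values that follow describe the lists. In bulk tissue, fewer cells of a type and less RNA per cell cannot be told apart.

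Among targets of the liver X receptors, the direct readout of the agonist, limma called no gene, which does not show that the genotypes were alike. Of 20 tested, 6 had positive log2 differences, the median was -0.17, and 1, Abcg5, had an unadjusted p below 0.05. With vehicle 13 of them were positive and the median was 0.10. The sterol transporter Abca1 was at 6088, 13612, 8804 and 6771 normalized counts in control and at 6846, 5847, 8462, 6685 and 7401 in libraries labelled Gata4LKO. These values overlapped, with control replicate 10 alone at the top (-0.26 ± 0.17). Abcg5 and Abcg8, which together pump sterols into bile, were at -0.49 ± 0.22 and -0.37 ± 0.17, and Abcg1 at 0.24 ± 0.28. The desaturase Scd2 was at 451 ± 122 and 448 ± 81.6, against 76.6 ± 16.5 and 84.1 ± 8.82 with vehicle. Scd1 ranged from 206231 to 641814 in control and from 67670 to 504364 in libraries labelled Gata4LKO, and Srebf1, the gene of SREBP-1, from 2888 to 9011 and from 2124 to 9363. Their log2 differences were -0.59 (Scd1) and -0.65 (Srebf1). For both, the spread within each group was far wider than the distance between the group means.

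Genes of cholesterol synthesis had lower values throughout the list. All 23 log2 differences were negative, with a median of -0.46, and 12 had an unadjusted p below 0.05. Averaged over its members, log2(normalized count + 1) in control libraries was 9.99, 9.63, 9.80 and 9.53, and in libraries labelled Gata4LKO it was 9.28, 9.10, 9.49, 9.21 and 9.18. Replicate 16 came nearest to the lowest control, replicate 13, without overlapping it. Insig1, which holds the SREBP escort protein in the endoplasmic reticulum, was at 3782, 4963, 3939 and 3135 in control and 2299.8, 1811, 2628, 2831 and 2547 in libraries labelled Gata4LKO. Mvd, a decarboxylase of the mevalonate steps, was at 75.8, 74.0, 68.2 and 51.8 against 37.7, 15.5, 26.8, 19.3 and 21.2. Neither gene had overlapping groups, and limma adjusted p was 0.159 for Insig1 and 0.157 for Mvd. The list median was -0.62 within the libraries of low mitochondrial share and -0.37 within those of high share, and it was -0.33 with vehicle.

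Fatty acid synthesis and storage enzymes showed the same sign. Of 19 lipogenic genes, 17 had negative differences, the median was -0.52, and 10 had an unadjusted p below 0.05, all of them lower. Elovl6, which extends palmitate, was at 3087, 4662, 3840 and 3228 in control and 1818, 1239, 2943, 2174 and 1933 in libraries labelled Gata4LKO, without overlap. Acly, which makes cytosolic acetyl-CoA, was at 5614, 4435, 4115 and 3095 against 2598, 2026, 3349, 1648 and 2115. Here replicate 16 lay above control replicate 13. The same pair stood out over the whole list: its mean was 12.31, 12.49, 12.47 and 11.92 in control and 11.73, 11.44, 12.40, 11.59 and 11.77 in libraries labelled Gata4LKO. The median of the list was -0.49 in both sets of mitochondrial share and -0.35 with vehicle.

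Enzymes and carriers that handle fatty acids and esters followed. Of 14 carboxylesterases, 11 had negative differences, with a median of -0.31, and 6 had an unadjusted p below 0.05: Ces2a, Ces1g, Ces2g, Aadac, Ces3b and Ces2c. Ces2g was at 672, 429, 685 and 765 in control and 324, 259, 258, 549 and 429 in libraries labelled Gata4LKO. Replicate 17 alone overlapped the controls, with replicate 18 just below the lowest of them. Its log2 difference was -1.28 ± 0.16 within the libraries of low mitochondrial share and -0.24 ± 0.31 within the others. Ces1g and Ces2 genes lie in clusters of near-identical copies, and the division of reads among them is uncertain. With vehicle the median of the esterase list was -0.05.

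Of 16 genes of fatty acid binding and uptake, 12 had negative differences, with a median of -0.29. Within the libraries of low mitochondrial share 9 were negative (median -0.17) and within those of high share 11 (-0.23). With vehicle 8 were negative, and the median was -0.002. After Fabp2 came the acyl-CoA synthetases Acsl5, at 7746 ± 1037 and 5330 ± 763 (-0.54 ± 0.13), and Acsl4, at 2673 ± 368 and 1744 ± 299 (-0.62 ± 0.15). Fabp1, the main fatty acid-binding protein of hepatocytes, was at 52394, 124751, 56907 and 70860 in control and 32704, 40997, 32284, 57746 and 43259 in libraries labelled Gata4LKO (-0.83 ± 0.28). As for Fabp2, control replicate 10 was the highest. Among 34 genes of fatty acid oxidation, by contrast, 14 differences were positive and 20 negative, the median was -0.03, and 1, Cyp4a32, had an unadjusted p below 0.05 (-0.58 ± 0.25). That median covers opposite signs: 24 were positive within the libraries of low mitochondrial share (median 0.12) and 10 within those of high share (-0.18). With vehicle 29 were positive, with a median of 0.18.

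Lipoprotein genes were mostly at slightly lower values. Of 23, 18 had negative differences and the median was -0.16. Within the libraries of low mitochondrial share 12 of 23 were negative, with a median of -0.08, and within those of high share 18 were, with a median of -0.24. Mttp, which loads lipid onto apolipoprotein B, was at 7624, 8873, 7930 and 9189 in control and 6021, 6386, 7237, 6742 and 5961 in libraries labelled Gata4LKO, without overlap (-0.38 ± 0.10, limma adjusted p = 0.188). Apoa1, the main protein of high-density lipoprotein, was at 122074 ± 18554 and 84727 ± 16180 (-0.54 ± 0.17). The endothelial lipase gene Lipg went the other way, at 248 ± 33.5 and 399 ± 104 (0.66 ± 0.23). Both Mttp (-0.47) and Apoa1 (-0.57) had differences of like size with vehicle.

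Among genes of sterol uptake the members differed in sign. Vldlr, a receptor for triglyceride-rich lipoproteins, was at 256 ± 99.4 and 420 ± 68.0 (0.76 ± 0.22). Npc1, which releases cholesterol from lysosomes, was at 3747 ± 631 and 2951 ± 102 (-0.33 ± 0.12). Over the 11 tested members of that list the median was 0.00.

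In bile acid synthesis and conjugation, 12 of 14 differences were negative, with a median of -0.25 that became 0.02 within the libraries of low mitochondrial share. Cyp2c70, which makes muricholic acids in mice, was at 13724, 19162, 18134 and 12431 in control and 10134, 8616, 10341, 9271 and 5709 in libraries labelled Gata4LKO, without overlap (-0.85 ± 0.23). Akr1d1, a reductase of the same pathway, was at 4892 ± 963 and 5934 ± 391 (0.30 ± 0.14). Abcb11, the bile salt export pump, was at 12729 ± 2656 and 9239 ± 2187 (-0.47 ± 0.18), while the median of the 15 transporters and regulators around it was -0.02.

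Cytochrome P450 enzymes of families 1 to 3 had mostly negative differences. Of 39 tested genes, regulators included, 29 had negative differences, the median was -0.19, and 10 had an unadjusted p below 0.05 with a lower value against 1 with a higher one. Cyp2a12 was at 7259, 9126, 7616 and 10397 in control and 4908, 4648, 4928, 5897 and 5586 in libraries labelled Gata4LKO. Cyp2f2, a periportal enzyme, was at 16998, 17352, 19824 and 19555 against 11302, 11206, 9638, 10631 and 14673. Both had groups apart. Cyp3a11, a major drug-metabolising enzyme, was at 70204, 80135, 60596 and 94776 against 30432, 31412, 60761, 60177 and 45220, with 1 library across the border. The 1 member with a higher value on the log2 scale was Cyp2b9 (3.18 ± 1.44). Control libraries had 355, 1.00, 0 and 2.66 and the others 28.9 to 97.4, so 3 controls lay near 0 and 1 lay above every other library. The mean was higher in control (89.7 against 68.4), and the sign turned in edgeR, at -0.40.

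Steroid dehydrogenases and sulfotransferases had 12 negative and 8 positive differences among 20, with a median of -0.20. Besides Hsd17b2, Hsd17b12 was at 2390 ± 116 and 1817 ± 245 (-0.40 ± 0.11), without overlap, and the 5-alpha-reductase gene Srd5a1 at 1763 ± 494 and 1176 ± 73.3 (-0.54 ± 0.19). Hsd3b5, a male-biased 3-keto-steroid reductase, was at 1047, 1159, 1087 and 563 in control and 302, 735, 157, 189 and 72.5 in libraries labelled Gata4LKO (-2.09 ± 0.48). Of 30 glucuronosyltransferases and glutathione transferases, 20 had negative differences, with a median of -0.13. Ugt2a3 was at 4630 ± 480 and 5948 ± 765 (0.36 ± 0.11) and Ugt2b35 at 5077 ± 724 and 3959 ± 562 (-0.36 ± 0.13).

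Genes known for higher expression in male liver had negative differences in 29 of 30 cases, with a median of -0.64, and 8 had an unadjusted p below 0.05. Means over the list were 10.68, 11.57, 11.15 and 11.15 in control and 10.75, 11.17, 9.86, 10.55 and 9.48 in libraries labelled Gata4LKO. The groups overlapped, and Gata4LKO replicates 16 and 18 were the lowest. The median was -0.21 within the libraries of low mitochondrial share, with 8 of 30 positive, and -1.0 within those of high share. With vehicle it was 0.14. Selenbp2 was at 232 ± 73.2 and 109 ± 14.6, without overlap (-1.04 ± 0.25), and Cyp4a12b at 248, 3023, 1610 and 1943 against 204, 328, 129, 651 and 145. Control replicate 9 was at the level of the other group. The 22 tested female-biased genes had 14 positive differences and a median of 0.32, which was 0.02 within the libraries of low mitochondrial share. Growth hormone signals through STAT5 to set this pattern, and of the 18 tested genes of that axis 11 had positive differences. Stat5a was at 98.4 ± 28.0 and 141 ± 34.9 (0.53 ± 0.22).

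**Figure D4:**
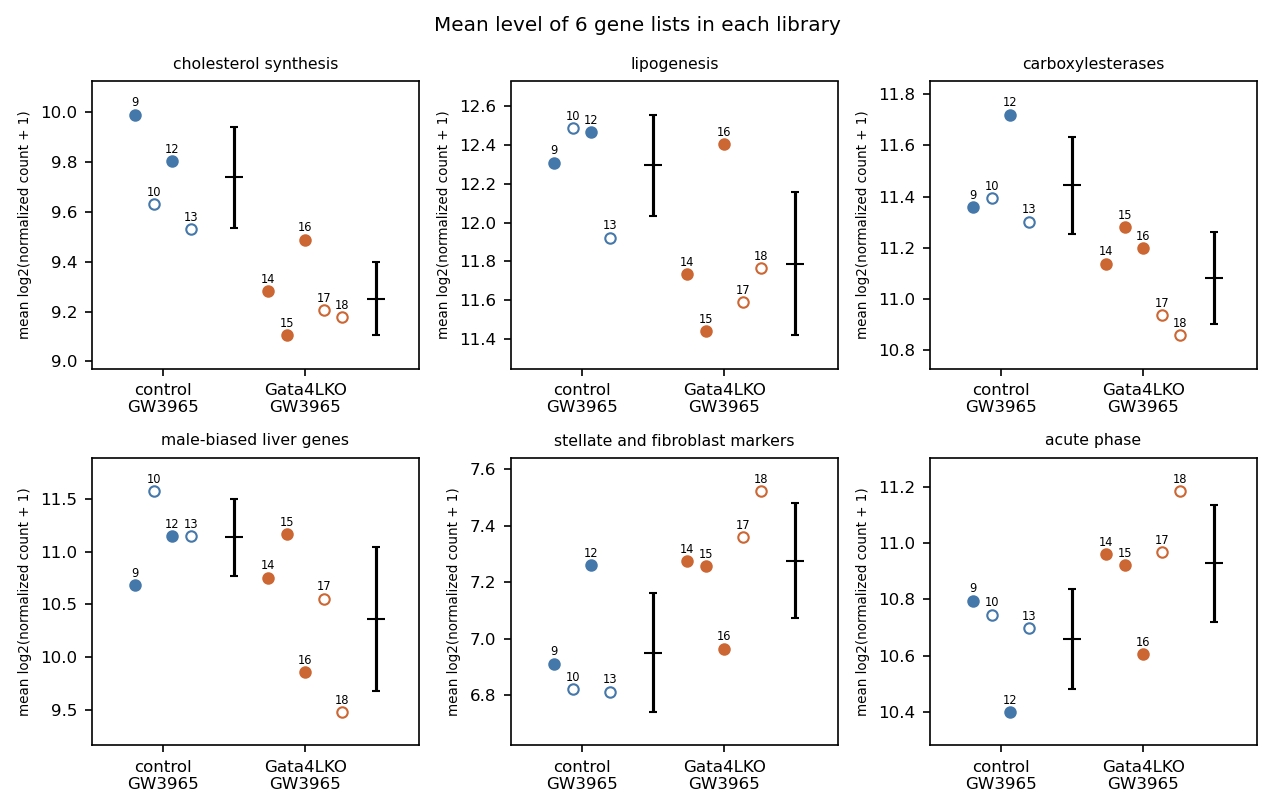
Average log2(normalized count + 1) of the tested members of 6 gene lists (vertical axis) in each library, numbered by replicate, for control (blue) and labelled Gata4LKO (orange) livers given GW3965. Open circles are libraries with more than 10% of counts from mitochondrially encoded genes, and bars are the mean and SD; the groups do not overlap for cholesterol synthesis and carboxylesterases and overlap for the other 4 lists.

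Acute phase genes had 22 positive and 12 negative differences among 34, with a median of 0.16, and all 7 with an unadjusted p below 0.05 were higher. After Lcn2 and Il1r1 came Il6ra, a subunit of the interleukin 6 receptor, at 2077, 1441, 2362 and 2985 in control and 3581, 4048, 2835, 2998 and 2977 in libraries labelled Gata4LKO (0.60 ± 0.17). Serpina3m was at 3335 ± 1236 and 5125 ± 838 (0.70 ± 0.23). With vehicle the list median was -0.25, and Il6ra was at 4239.8 ± 467 and 3145 ± 322. In the list of iron and haem genes the median was 0.02 over 33 genes. Alas1, the first enzyme of haem synthesis, was at 3491, 10632, 8489 and 8299 in control and 12026, 11774, 18563, 11294 and 15270 in libraries labelled Gata4LKO, without overlap (0.92 ± 0.25, limma adjusted p = 0.262). Control replicate 9 was by far the lowest.

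Of 31 genes of the unfolded protein and integrated stress response, 24 had negative differences, with a median of -0.20 (-0.08 within the libraries of low mitochondrial share and -0.42 within the others). The chaperone Hyou1 was at 1677 ± 336 and 1170 ± 475 and the secreted factor Manf at 842 ± 272 and 567 ± 158. In the p53 list, 16 of 24 differences were positive and the median was 0.12. Cdkn1a, the cell cycle inhibitor p21, was at 30, 20, 173 and 183 in control and 192, 533, 228, 262 and 306 in libraries labelled Gata4LKO. The 2 low controls were replicates 9 and 10, the same libraries that had almost no Gm5345. The other controls, at 173 and 183, lay just below the lowest library of the other group, at 192. The log2 difference of 2.08, not called by limma, thus came mostly from the 2 low controls. What lies behind that split was not tested. In the cell cycle list 9 of 19 differences were positive, and in the interferon list 9 of 31, with a median of -0.15. The interferon median was -0.49 within the libraries of low mitochondrial share (4 of 31 positive), 0.07 within those of high share (19 positive) and 0.28 with vehicle (25 positive). Lists of clock genes, glucose and glycogen metabolism, and pericentral and periportal genes had medians from -0.11 to -0.01.

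Of 24 periportal genes 10 had positive differences and of 20 pericentral genes 9 did. Otc, a periportal enzyme of the urea cycle, was at 9576, 9235, 9895 and 12900 in control and 5314, 5271, 5923, 11030 and 5858 in libraries labelled Gata4LKO. Replicate 17 alone lay at the control level. Within the libraries of low mitochondrial share the difference was -0.82 ± 0.09 (limma adjusted p = 0.0116), and over all 9 it was -0.69 ± 0.18 (0.200). Lect2, a pericentral secreted factor, was at 1081 ± 172 and 839 ± 111 (-0.36 ± 0.14). Sds, a periportal serine dehydratase, had the opposite sign, at 2484 ± 938 and 3308 ± 357 (0.51 ± 0.24).

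**Figure D5:**
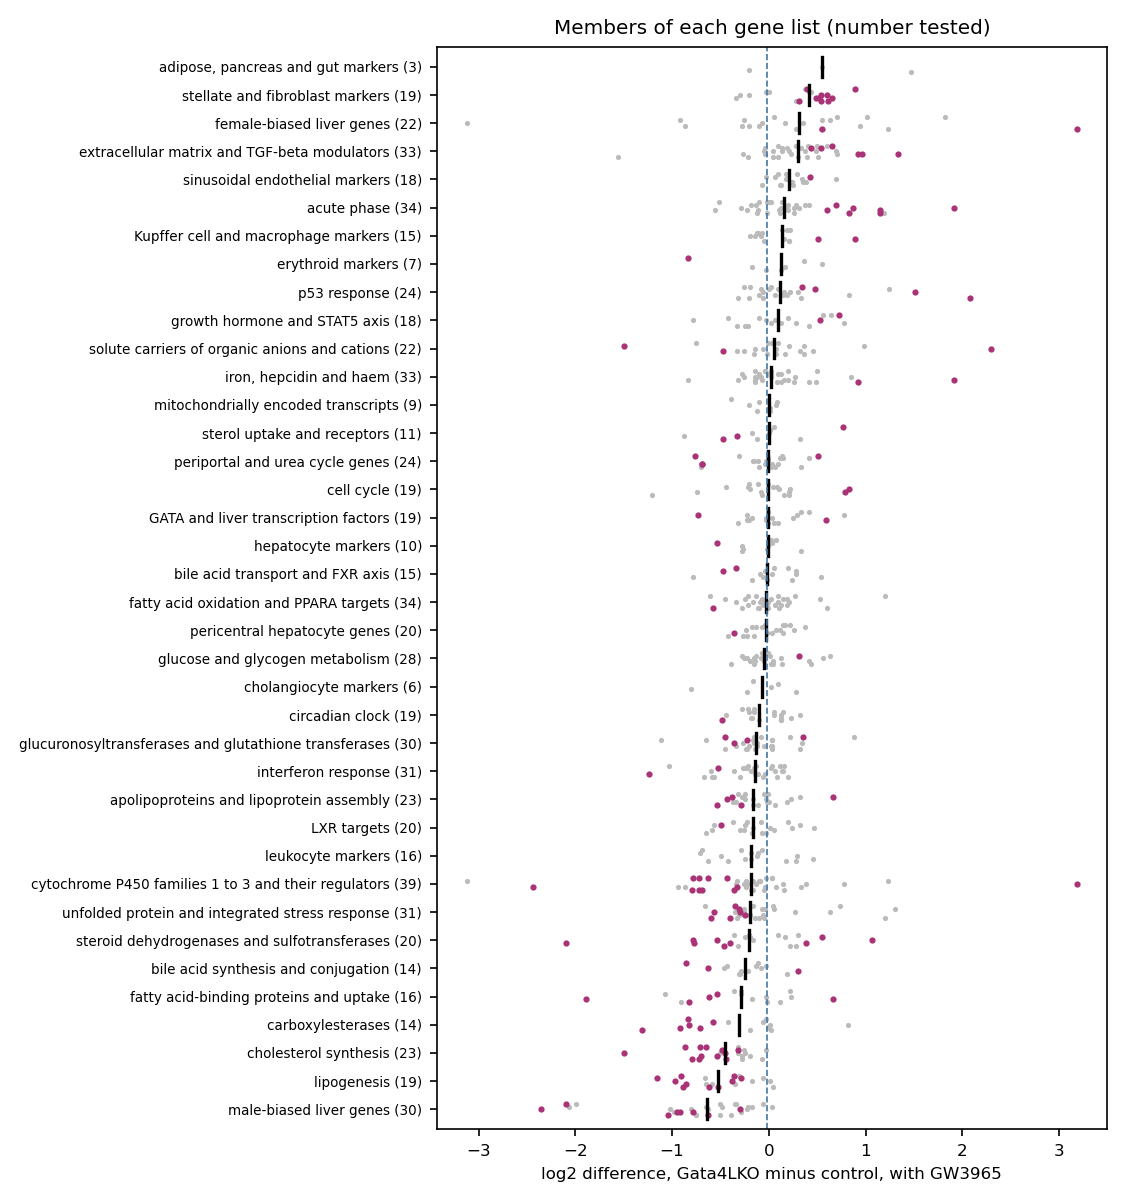
Log2 difference with GW3965, Gata4LKO minus control (horizontal axis), of every tested member of the 38 gene lists, with the number tested in parentheses; purple points have an unadjusted limma p below 0.05, black bars are list medians and the dashed line is the median of all genes tested. Medians run from -0.64 for male-biased genes to 0.55 for the 3 tested markers of adipose, pancreas and gut.

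Markers of mesenchymal cells were at higher values. Of 19 stellate and fibroblast markers, 15 had positive differences, the median was 0.41, and all 10 with an unadjusted p below 0.05 were higher. Their summed normalized counts were 5410, 5018, 6386 and 5258 in control and 7554, 6460, 7167, 8793 and 9122 in libraries labelled Gata4LKO, without overlap, although the margin between control replicate 12 and Gata4LKO replicate 15 was small. Replicates 17 and 18, of high mitochondrial share, held the highest sums. Averaged as log2(normalized count + 1), the same markers overlapped, with Gata4LKO replicate 16 at 6.96 and control replicate 12 at 7.26. Dcn, which encodes the proteoglycan decorin, was at 1988, 1642, 2005 and 1800 in control and 2536, 2047, 2762, 3569 and 3383 in libraries labelled Gata4LKO (0.60 ± 0.14, limma adjusted p = 0.157). Reln, a stellate cell marker, was at 876 ± 126 and 1250 ± 153 (0.52 ± 0.15), and Hand2, a transcription factor of these cells, at 118 ± 27.9 and 183 ± 51.5 (0.61 ± 0.21). The list median was 0.15 within the libraries of low mitochondrial share, 0.63 within those of high share and 0.07 with vehicle.

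Extracellular matrix genes, of which stellate cells are a main source, had the same sign. Of 33, 27 had positive differences, with a median of 0.31, and the 6 with an unadjusted p below 0.05 were higher: Adamtsl2, Adamts1, Ccn2, Ltbp1, Col3a1 and Col1a2. Ccn2, a growth factor of the matrix, was at 87.5, 83.0, 149 and 142 in control and 181, 193, 402, 281 and 126 in libraries labelled Gata4LKO (0.97 ± 0.33). Ltbp1, the partner of Adamtsl2, was at 33.3 ± 15.2 and 61.5 ± 22.9 (0.92 ± 0.37). Here too the median was smaller within the libraries of low mitochondrial share, at 0.15, than within the others, at 0.65. The summed stellate markers given above differed between the groups in the same direction, and their part in the called difference of Adamtsl2 was not tested.

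Other cell types gave no such separation in their summed markers. Of 18 sinusoidal endothelial markers, 16 had positive differences and the median was 0.21, but their sums, 7306 to 11593 in control and 7557 to 12275 in libraries labelled Gata4LKO, overlapped. Kupffer cell and macrophage sums were 6770 to 10942 and 6488 to 9310, with a list median of 0.14. Of its 15 members, 8 had positive differences. Within the libraries of low mitochondrial share 3 of 15 were positive and the median was -0.18, and within those of high share 12 were positive and it was 0.30. The 2 members with an unadjusted p below 0.05 were higher: Vsig4, a complement receptor of Kupffer cells, was at 313 ± 47.5 and 454 ± 109 (0.51 ± 0.16), and Cd163 at 161 ± 100.5 and 274 ± 114 (0.89 ± 0.38). Leukocyte sums were 1561 to 4101 and 1565 to 3928. Of 16 tested leukocyte markers 4 had positive differences, with a median of -0.18, and the median was 0.37 with vehicle. At low mitochondrial share 0 were positive (median -0.46), and at high share 12 were (median 0.22). Cholangiocyte sums were 687 to 1055 and 678 to 1170, and erythroid sums 1719 to 2822 and 1394 to 2623. Of 7 erythroid markers 4 had positive differences, all of them globin genes, and the median was 0.13. Alas2, the erythroid form of the haem enzyme, was at 1072, 1342, 1677 and 1492 in control and 1003, 1122, 742, 595 and 541 in libraries labelled Gata4LKO (-0.84 ± 0.19). The hepatocyte list had a median of -0.01 over its 10 genes.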

How the data were processed

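Liver RNA was extracted with TRIzol and a column kit and made into mRNA libraries with a KAPA kit, per the labels' protocols. STAR 2.6.0c, DESeq2 and build mm10 are named in the submitters' processing notes. No label, note or header names the counter, the annotation or the use of strand. The authors deposited a signal per gene and library: read counts divided by a size factor, called normalized counts here. The authors also deposited log2 fold changes with p-values for each contrast, which were used only where named. All values came out as whole reads within 0.05 of a read once the size factor was undone, and these recovered reads served the count tests.

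Groups follow the titles. Genes with a value of at least 10 in at least 4 libraries (13379 of 24676) were tested with limma 3.58.1 (R 4.3.3) on log2(normalized count + 1), in 1 fit over all 17 libraries that share one estimate of the spread, with Benjamini-Hochberg adjustment over all genes tested and a threshold of 0.05. Fold changes are on that log2(value + 1) scale, which understates the change of low genes. Alternatives were edgeR 4.0.16, DESeq2 1.42.0, other filters, pseudocounts, scalings, covariates and sets of libraries. Named genes were those called, the rest of the 30 of lowest p, Gata4 and Gata6, up to 4 members of each list with the lowest unadjusted p where it was under 0.05, 7 targets of the liver X receptors, the 10 of lowest adjusted p in each direction in the authors' deposited table, and Gm5345, 118 in all. Ces2c, Ces3b, Col1a2, Col3a1, Slc17a1, Slc17a2, Slc17a9, Sult1e1, Fam234b, Ccl9 and the markers Alb and Adipoq were added after their values were seen. The members and gene lists were chosen with earlier results of these data known. Positions are from GENCODE M21 (24656 of 24676 identifiers matched) and promoter windows from RefSeq GRCm38.p6. The fits were tested on simulated data. Replicates differed by more than sampling noise, so none was merged. Depth limits low genes most, and total counts are given in the report.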

Additional observations from a re-analysis of the deposited data

Results flagged for a closer look

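Single libraries stood apart from the rest of their group for 18 of 244 sets of values examined, by a rule with a nominal rate of about 1 in 20. Many of the genes were chosen by low p, so that rate need not hold for them. Among control libraries given GW3965, replicate 9 was high for Lcn2 (98.3 normalized counts, the next 46.5), Slc22a26 (129, the next 25.2) and Cyp2b9 (355, the next 2.66). Replicate 10 was high for Tlcd5 (10.0, the next 4.37) and Atp8b1 (1444, the next 978), and replicate 12 for Adamtsl2 (81.3, the next 46.0). Replicate 13 was high for Mbl2 (5035, the next 3834), Slco2a1 (1179.6, the next 889) and Vsig4 (384, the next 298).

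Among libraries labelled Gata4LKO, replicate 17, with the highest mitochondrial share, was high for 7 genes. They were 1810008I18Rik (1426, the next 663), Sc5d (6542, the next 4859), Otc (11030.0, the next 5923), the interferon genes Oasl1 (61.7, the next 21.2) and Iigp1 (6305, the next 4475), and the p53 targets Ccng1 (1644, the next 1016) and Eda2r (67.4, the next 30.2). Replicate 14 was high for Xbp1 (1758, the next 1536) and replicate 16 for Srebf1 (9363, the next 3869).

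The genotype difference with GW3965 minus that with vehicle was 7.54 in log2 for Gm5345 and 3.95 for Sult1e1, both past the threshold in the limma test of the difference itself.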

How the results depend on the processing

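Against the 8 genes called (2 higher, 6 lower), limma called 7 (1 higher) with no filter on low values, 1 (0 higher, 1 lower) from the 9 GW3965 libraries alone (Slc17a4), 6 (3 higher, 3 lower) after scaling to nuclear-encoded genes, 51 (10 higher, 41 lower) with the mitochondrial share as covariate and 59 (11 higher, 48 lower) with array quality weights. It called 2 (1 higher, 1 lower) with Gm5345 presence as covariate. Without the libraries of high mitochondrial share, in a fit that kept the other vehicle libraries, it called 9 (0 higher, 9 lower). Within the GW3965 libraries of high share alone it called 2 (2 higher, 0 lower). Without control replicates 9 and 10, an alternative that was chosen after seeing the data, it called 2 (1 higher, 1 lower). Its log2 differences are the same as with the Gm5345 covariate. EdgeR called 5 (0 higher, 5 lower), with 825 genes at an unadjusted p below 0.05, and DESeq2 81 (22 higher, 59 lower). Leaving out 1 library at a time gave 2 to 21 calls, 0 to 3 higher and 2 to 18 lower, with 21 without Gata4LKO replicate 17 and 2 without replicate 14 or 18. For the interaction, edgeR called 0, DESeq2 26, the mitochondrial covariate gave 4, leaving out the libraries of high share 1, and leaving out 1 library 0 to 9.

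Scaling to nuclear-encoded genes moved the median log2 difference of all genes from -0.01 to 0.105. Gata4 and Scd2, both near 0, turned sign. Gata4 was at 0.11 under nuclear scaling, 0.0149 with the mitochondrial covariate, 0.16 without the libraries of high share, 0.0485 with array weights, and -0.15 to 0.10 with 1 library left out. Scd2 was at -0.0141 by edgeR, -0.0118 by DESeq2, -0.28 without the libraries of high share, -0.15 with array weights and -0.16 to 0.16 with 1 library left out. Cyp2b9 (3.18) was at -0.40 by edgeR and -0.39 by DESeq2, and Ccna2 (0.83) at -0.13 within the libraries of high share. Other than what each setting itself removes, the cause was not tested. No paired analysis was possible because the groups share no replicate numbers.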
